A study of Homo sapiens with 4 samples.

Results

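In BJ human foreskin fibroblasts, 3616 genomic intervals were listed for both full-length SOX2 and the SOX2 DNA-binding domain alone, lay away from protein-coding promoters, and carried the value 1 in the seventh column of the deposited lists. They are called the column 1 sites here and were chosen by the authors' peak calls in both lists and by the value of that column. An interval qualified when the same row stood in both lists, when the seventh column held 1, and when its centre lay more than 1 kb from every transcript start of a protein-coding gene (build hg19, GENCODE release 44 lifted to that build). Exact duplicate rows were counted once. The column 1 sites made up 3616 of the 58827 distinct intervals in the lists and of the 13578 distal intervals that the lists share. Of the other distal shared intervals, 8878 had column 0 and 1084 had column 2 or more. A further 41799 distal intervals stood in the SOX2 list alone and 855 in the SOX2-DBD list alone.

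The study profiled V5-tagged proteins by CUT&RUN, in which an antibody brings a nuclease to chromatin and the short fragments it releases are sequenced. The groups were BJ fibroblasts, an established foreskin line, with 48 h of ectopic SOX2 (labelled SOX2) or of ectopic SOX2-DBD (labelled SOX2dbd), each with 2 samples. One peak list per group was analysed here, attached to replicate 1 of each group, with another list of down-sampled SOX2 peaks. No spread between replicates could therefore be computed, and every interval given below covers counting error over sites only. Neighbouring sites come from the same libraries and are not biological replicates. The promoter that drove the transgenes, the number of clones and an uninduced control were not given in the sources used here, and the fibroblast markers of the cells were not measured by these lists. A shared row carries the same signal values in both lists, so the signal of a column 1 site cannot be compared between SOX2 and SOX2-DBD.

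SOX2 is a transcription factor of the SOX family that maintains pluripotent and neural progenitor cells and is one of the classical reprogramming factors. Its HMG box, the DNA-binding domain, contacts the minor groove, bends the DNA and prefers words with an ACAA core followed by A or T and then G. SOX2 is regarded as a pioneer factor because it can bind sites within closed chromatin. Fibroblasts do not normally express it, and their distal enhancers are known for AP-1, TEAD and RUNX factors.

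The deposited lists do not say what the seventh column counts. A weight matrix of 10 bases with ACAA at positions 3 to 6 was fitted to the column on the odd-numbered autosomes. On the remaining chromosomes the number of words above its threshold equalled the column in 6605 of 6682 distal shared intervals (98.9%). Among column 1 sites on those chromosomes it equalled 1 in 1729 of 1764 (98.0%). Over all chromosomes 3540 of 3616 sites (97.9%) held exactly 1 match, 51 held none and 25 held more than 1. The column therefore tracks SOX-like words, and everything said below about the presence of such words describes how the sites were chosen and is no test of binding.

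The matched words were short variations on one theme. The 3540 matches comprised 153 distinct words of 10 bases, and 21 distinct words when only positions 2 to 9 were read. The 4 commonest of these 8-base words covered 1799 sites (50.8%) and are shown because they are what column value 1 stands for in most of the list. The counts beside them are of sites whose match was that word.
Word in 668 sites: AACAAAAG
Word in 431 sites: AACAAAGG
Word in 373 sites: AACAATGA
Word in 327 sites: AACAATGG
Position 2 was A in 74.6% and G in 20.1% of matches. Position 7 was A in 1770 and T in 1770 matches. Position 8 was G in 62.1% and A in 37.9%, and position 9 was G in 71.4%. The match read along the plus strand in 1695 sites (47.9%). Counted anywhere in the interval, as the match or not, the word AACAATGG stood in 331 column 1 sites. It stood in 0 of 8878 column 0 intervals, and as the column tracks such words, this 0 describes how the classes were divided. The shorter SOX core, ACAAAG or ACAATG, stood in the central 200 bp of 2162 column 1 sites (59.8%), of 41.4% of column 0 intervals and of 27.1% of windows along the genome. AACAAAGA, which meets the core but lacks G at position 9, was the match in 180 sites. Counted anywhere in the interval, it stood in 394 column 1 sites (10.9%) and in 517 column 0 intervals (5.82%). AACAATGA lacks that G as well and stood in 437 column 1 sites (12.1%) and 155 column 0 intervals (1.75%). Column 1 sites were wider than column 0 intervals, which bears on counts over whole intervals.

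Stretches from 7 column 1 sites show the match in its surroundings. Each was read from hg19 along the strand of the match. The first 4 span 100 bases around the region of maximum signal, with the match in capitals. They are the sites with the highest total signal, overall or near a gene of a fixed list, whose match fell there outside untranslated exons. NBPF1 and RBMS3 come from the overall ranking, and TWIST1 and FOSL2 from the lists of mesenchymal and AP-1 genes. Names are those of the nearest protein-coding transcript start.
NBPF1, chr1:16945027-16945126, plus strand: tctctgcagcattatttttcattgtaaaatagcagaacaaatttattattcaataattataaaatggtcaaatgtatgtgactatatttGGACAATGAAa
RBMS3, chr3:30014317-30014416, minus strand: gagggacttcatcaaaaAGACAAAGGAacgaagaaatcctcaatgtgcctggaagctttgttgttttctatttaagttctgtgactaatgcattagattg
TWIST1, chr7:19100987-19101086, minus strand: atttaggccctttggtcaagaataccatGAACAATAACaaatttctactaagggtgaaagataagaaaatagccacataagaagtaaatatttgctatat
FOSL2, chr2:28523834-28523933, plus strand: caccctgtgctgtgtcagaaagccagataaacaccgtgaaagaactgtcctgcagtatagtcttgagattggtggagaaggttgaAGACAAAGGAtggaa
The other 3 span 80 bases around a match with an AP-1 word beside it, both in capitals. They have the highest total signal among the sites with an AP-1 word at most 10 bp from the match, and were chosen after their values were seen.
FCHO2, chr5:72327010-72327089, minus strand: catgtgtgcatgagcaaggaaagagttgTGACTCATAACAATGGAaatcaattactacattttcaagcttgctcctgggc
PLCB1, chr20:8538501-8538580, plus strand: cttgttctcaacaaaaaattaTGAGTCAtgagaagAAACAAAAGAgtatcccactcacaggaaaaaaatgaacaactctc
BTRC, chr10:103272688-103272767, minus strand: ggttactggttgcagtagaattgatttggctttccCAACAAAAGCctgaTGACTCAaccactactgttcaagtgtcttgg

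In FCHO2, whose product works in endocytosis, the AP-1 word abutted the match with a gap of 0 bp, in an intron and within an interval of total signal 8392. In PLCB1, a phospholipase C gene, the gap was 7 bp and the total signal 6052. In BTRC, the gene of an F-box protein, the gap was 4 bp and the total signal 6028.

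Column 1 sites were of moderate width and signal within these lists. Their median width was 420 bp (95% interval of the median 413 to 426), with quartiles of 319 and 547 bp and a range of 19 to 1714 bp. Column 0 intervals had a median of 340 bp, column 2 or more intervals 507 bp, and intervals of the SOX2 list alone 559 bp. Total signal was read as a sum of coverage in the authors' units, and its scale was not given in the sources used here. For a shared interval the sum need not be over the interval as listed. The region of maximum signal lay at least partly outside 546 column 1 sites, and 38 shared their signal values with another site. Widths and signals of shared intervals may therefore not be like measures to those of the SOX2 list alone. Median total signal was 2910.5 in column 1 sites (2850 to 2969), 2618 at column 0, 3540 at column 2 or more and 2280 in the SOX2 list alone. The maximum signal had a median of 11 in column 1 sites. These values took part in the choice of peaks and carry no test.

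**Figure D1:**
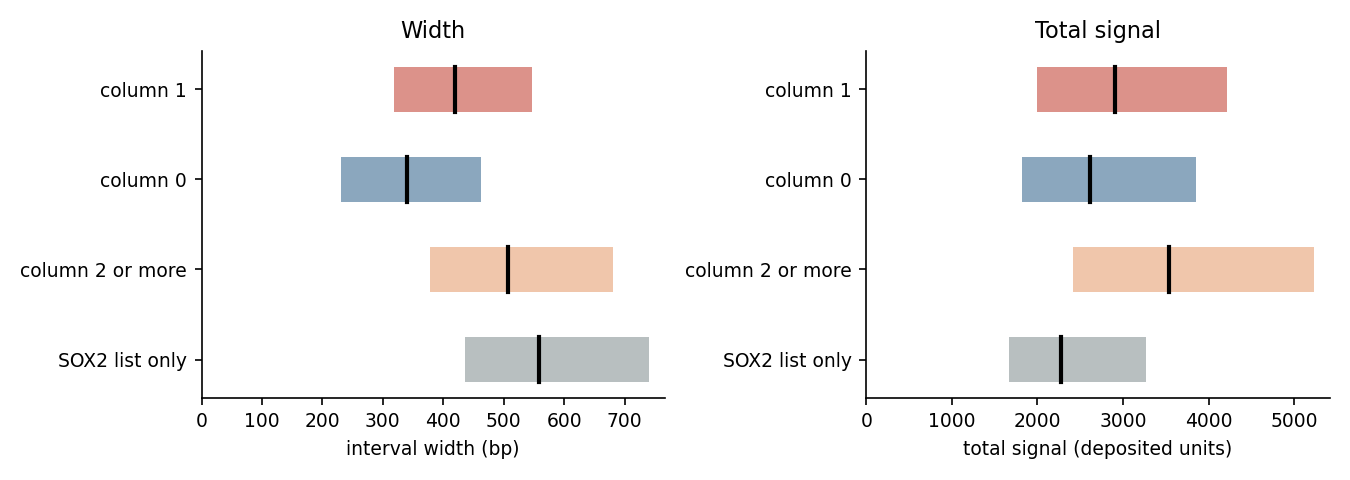
Interval width in bp (left) and total signal in the deposited units (right) for distal intervals by value of the seventh column and for the SOX2 list alone. Bars span the quartiles and black lines mark the medians; column 1 sites lay between column 0 and column 2 or more on both measures, at medians of 420 bp and 2910.5.

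The share of distal shared intervals with column 1 rose with width. It was 4.57% (38 of 832) below 100 bp, 23.4% from 200 to 300 bp, and 36.2% (398 of 1098) at 700 bp or more. The share with column 2 or more rose likewise, from 0% below 100 bp to 22.3% at 700 bp or more. As the column tracks words inside the interval, this describes how the sites were chosen. The region of maximum signal lay at least partly outside the interval in 546 column 1 sites (15.1%), against 29.9% at column 0 and 10.3% at column 2 or more. In the SOX2 list alone this was the case in 0 of 41799 intervals. Among column 1 sites, 38 shared their signal values with another column 1 site.

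The match lay 25 to 150 bp from the point of highest signal more often than other words with the same core did. The position of the match was not used to choose the sites. Its median distance from the middle of the region of maximum signal was 110 bp (106 to 114), against 139 bp (136 to 141) for the 22808 other ACAA words in the same sites. Within 25 bp of that middle lay 345 of 3540 matches (9.75%) and 9.80% of the other words, a difference of -0.06 percentage points (95% interval -1.07 to 1.03). From 25 to 150 bp lay 1900 matches (53.7%) and 43.3% of the other words, 10.3 points more (8.56 to 12.1). The fullest bin was 50 to 75 bp, with 478 matches (13.5%) against 9.47% of other words (4.03 points, 2.88 to 5.26). From 150 to 400 bp the difference was -7.41 points (-9.03 to -5.76). Each of these sites gave 1 match whatever its width, whereas wider sites gave more of the other words. The part of width in these differences was not tested, and words of the same site were treated as independent. In the middle part of the interval, up to 50% of the way from centre to edge, lay 53.5% of matches and 51.4% of other words (2.11 points, 0.34 to 3.87). Within 50 bp of the maximum the shares were 21.1% and 19.4% (1.72 points, 0.31 to 3.19).

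The same matrix was applied to intervals of the SOX2 list alone, where the column played no part. There 45.4% of 24390 matches and 39.9% of 398461 other ACAA words lay 25 to 150 bp from the middle (5.50 points, 4.86 to 6.14). Within 25 bp, matches were slightly fewer (8.08% against 8.49%, -0.42 points, -0.76 to -0.06). At column 2 or more the excess from 25 to 150 bp was 9.78 points (7.51 to 12.1). Within 25 bp matches there were somewhat more frequent than other words (9.81% against 8.51%, 1.299 points, 0.0054 to 2.69), unlike in the SOX2 list alone. The limits of these bands were set after the distances in column 1 sites had been seen, so the intervals from the other classes are the independent ones. The middle of the region of maximum signal is taken as a point, although that region itself has a length.

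**Figure D2:**
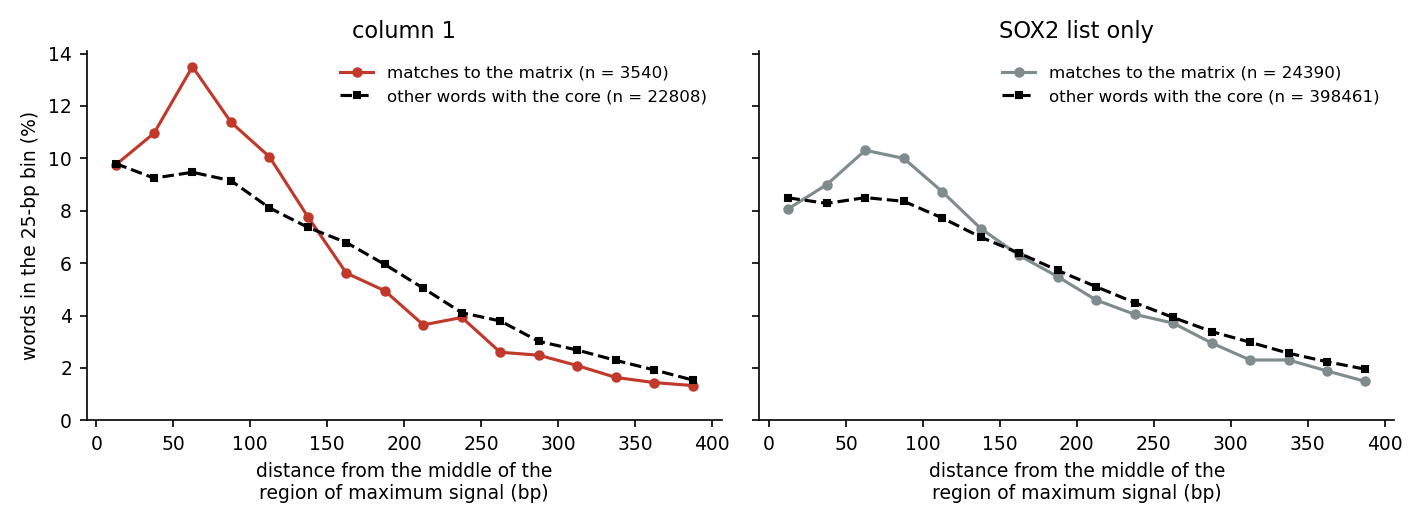
Share of words per 25-bp bin against distance in bp from the middle of the region of maximum signal, for matches to the matrix (coloured) and other words with the ACAA core (black), in column 1 sites (left) and in the SOX2 list alone (right). Matches exceeded other words between 25 and 150 bp in both panels and reached 13.5% at 50 to 75 bp in column 1 sites, while the curves met below 25 bp.

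AP-1 words were placed differently. AP-1 is the family of FOS and JUN dimers, which occupy many fibroblast enhancers, and its words TGAGTCA and TGACTCA were searched on both strands. Of 1185 AP-1 words in the 3616 sites, 221 (18.6%) lay within 25 bp of the middle of the region of maximum signal, 8.90 points more than of the SOX matches (6.56 to 11.4). The median distance was 84.5 bp (78.5 to 90.5) against 110 bp for the matches. From 25 to 150 bp the shares were 52.1% and 53.7%, and the interval of their difference included 0 (-4.89 to 1.67).

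**Figure D3:**
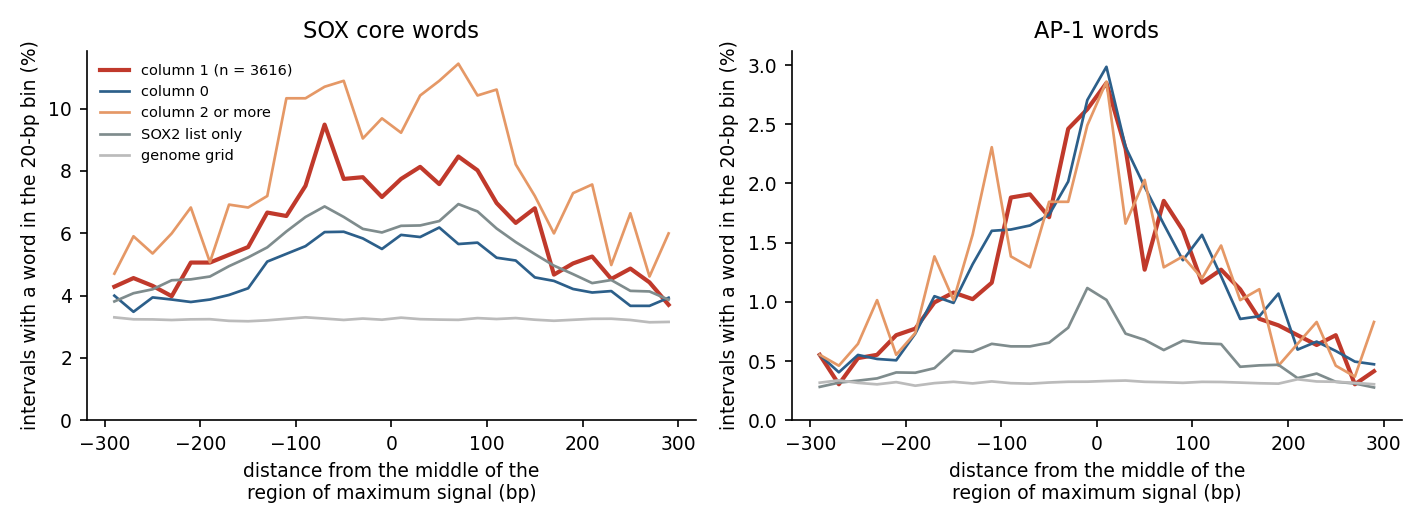
Share of intervals with a SOX core word (ACAAAG or ACAATG, left) or an AP-1 word (right) per 20-bp bin, against distance in bp from the middle of the region of maximum signal. The AP-1 curve of column 1 sites (red) peaked at the middle, at 2.85%, and the SOX core curve was broad with its highest bins about 70 bp to either side; SOX words entered the choice of these sites and AP-1 words did not.

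AP-1 words were frequent in column 1 sites, at the level of the other shared intervals. In 200-bp windows at the interval centre, 602 of 3616 column 1 sites (16.6%, 15.5 to 17.9) held an AP-1 word. The windows 10 kb downstream held one in 2.68%, and windows every 10 kb along the genome in 3.06%. At column 0 the share was 17.4%, a difference of -0.73 points (-2.16 to 0.74). At column 2 or more it was 14.8% (1.80 points, -0.74 to 4.15). In the SOX2 list alone it was 6.57%, 10.1 points lower (8.88 to 11.4). In the 855 distal intervals of the SOX2-DBD list alone it was 14.85% (12.63 to 17.39), so a high AP-1 share was not particular to shared intervals. The difference from column 0 depended on the window. In whole intervals column 1 exceeded column 0 by 3.02 points, with an interval above 0, where column 1 sites are also longer. Within bands of width the difference was -1.60 points in whole intervals (-3.42 to 0.22) and -0.82 points in the 200-bp windows (-2.31 to 0.66), and of these the first was computed after the data had been seen.

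The share of windows with an AP-1 word was near the same with and without a SOX core word. It was 17.3% (15.8 to 19.0) in column 1 windows with one and 15.7% (13.9 to 17.6) in windows without (1.62 points, -0.87 to 4.04). An AP-1 word lay at most 10 bp from the match in 77 of 3540 sites (2.17%), overlaps included, of which there were 14. Of the 22808 other ACAA words in the same sites, 1.85% had an AP-1 word at most 10 bp away (0.32 points, -0.15 to 0.88). At 50 bp the shares were 8.64% for matches and 7.08% for other words (1.57 points, 0.62 to 2.59). Matches and AP-1 words both lay nearer than other words to the region of maximum signal, and the part of that in the difference at 50 bp was not tested.

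Sites of lower signal held AP-1 words more often. The distal shared intervals were divided into 4 equal bins of total signal, with limits at 1893, 2758 and 4069. The share in column 1 sites was 19.6% in the lowest bin, 19.9% and 15.2% in the next, and 12.7% in the highest. The lowest bin exceeded the highest by 6.83 points (3.41 to 10.3). Column 0 intervals went from 19.6% to 12.9% (6.68 points, 4.51 to 8.83). Median width rose alongside, from 313 bp in the lowest bin of column 1 sites to 612 bp in the highest, and its part in the result was not tested. With windows centred on the region of maximum signal the shares were 22.0% in the lowest and 15.9% in the highest bin. In column 1 sites the fall was not particular to AP-1 words. The SOX core share of their central windows went from 65.6% in the lowest bin to 53.6% in the highest, against 43.5% and 41.8% at column 0.

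Of 15 words for factors other than SOX, column 1 sites differed from column 0 in 1, from column 2 or more in 0, and from the SOX2 list alone in 9, judged by whether the 95% interval of the difference excluded 0. No correction was made for the 15 words. The exception against column 0 was the CRE word TGACGTCA, bound by CREB and ATF factors, in 6 column 1 sites (0.166%) and 2 column 0 intervals (0.0225%). Against the SOX2 list alone 7 were more frequent and 2 less. Beside AP-1, the TEAD word GGAATG stood in 19.5% against 15.6% (3.97 points, 2.66 to 5.34). TEAD factors are the DNA-binding partners of YAP. The NFI word TTGGC stood in 28.2% against 25.1%, and the RUNX word TGTGGTT in 6.72% against 5.69% (1.03 points, 0.22 to 1.92). The GATA word AGATAA was lower, at 17.9% against 19.8%, as was CCAAT, at 26.0% against 28.5%. Mean GC content of the windows was 35.4% in column 1 sites and 33.4% in the SOX2 list alone, and its part in these differences was not tested. The octamer ATGCAAAT, bound by OCT4, the usual partner of SOX2 in pluripotent cells, stood in 2.52% of column 1 sites and 3.07% of the SOX2 list alone (-0.55 points, -1.04 to 0.03). Forkhead words (TGTTTAC or TGTTTGC) stood in 8.66% and 8.91%. Also more frequent than in the SOX2 list alone were the CRE word, at 0.166% against 0.0407%, the E-box CAGCTG, at 6.22% against 5.00%, and the ETS words, at 1.47% against 0.986%. The CEBP word (14.3%), the homeodomain word (8.13%) and the SP word (0.304%) had intervals that included 0, and the NFI pair stood in 0 of 3616 sites, which allows a share of up to 0.083%. In windows along the genome the shares were 10.6% for TEAD, 31.0% for the NFI word, 3.89% for RUNX, 15.1% for GATA, 27.9% for CCAAT, 2.10% for the octamer, 6.50% for forkhead, 0.0657% for CRE, 6.83% for the E-box, 1.11% for ETS, 10.8% for CEBP, 8.71% for the homeodomain word and 2.42% for SP. The NFI, CCAAT, E-box, homeodomain and SP words were thus no more frequent in column 1 sites than in genome windows, whose mean GC content was 40.5%.

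**Figure D4:**
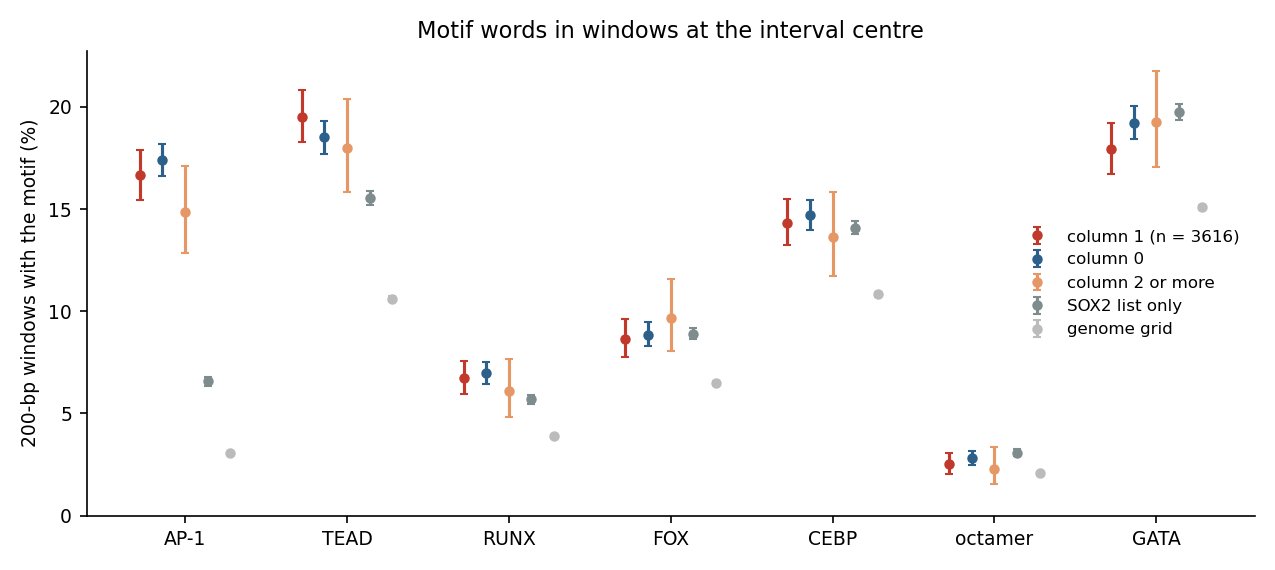
Share of 200-bp windows at the interval centre that hold a motif word, with 95% Wilson intervals, for 7 factor families and 5 classes of windows. For AP-1 the 3 classes of shared intervals lay between 14.8% and 17.4%, above the SOX2 list alone at 6.57% and the genome grid at 3.06%; for FOX and CEBP words the intervals of column 1 and the SOX2 list alone overlapped.

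Sites with different words had similar signal. Median total signal was 2974 (2827 to 3208) for AACAAAAG, 2766 (2585 to 2953) for AACAAAGG, 2940 (2683 to 3051) for AACAATGA and 2804 (2514 to 3000) for AACAATGG, with overlapping intervals. The sites were also divided into 3 groups by match score. The match lay within 50 bp of the middle of the region of maximum signal in 21.2% of the highest-scoring and 20.5% of the lowest-scoring group (0.73 points, -2.49 to 3.97). An AP-1 word at the maximum was found in 19.0% and 18.6% (0.40 points, -2.70 to 3.52). In the down-sampled list stood 61.0% and 63.8% (-2.83 points, -6.67 to 1.01). Median total signal was 2857 (2722 to 2954) in the highest-scoring and 2967.5 (2869 to 3117) in the lowest-scoring group.

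Some column 1 sites held a second SOX core word nearby. In the 200-bp windows 1559 sites (43.1%) held 1 such word, 498 (13.8%) held 2, 105 (2.90%) held 3 or more and 1454 (40.2%) held none. A pair at most 20 bp apart stood in 154 sites (4.26%, 3.65 to 4.97). The share was 2.73% at column 0, 8.95% at column 2 or more and 1.23% in genome windows. Of the 154 sites, 95 held a pair in the same orientation. The same held for 143 of 242 column 0 intervals with a pair, 850 of 1313 in the SOX2 list alone and 2276 of 3341 genome windows. A predominance of the same orientation was thus not particular to column 1 sites. No spacing dominated, and the commonest same-strand gaps were 12 and 14 bp with 10 sites each.

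Of the column 1 sites, 2275 (62.9%, 61.3 to 64.5) overlapped an interval of the down-sampled SOX2 list, 1400 of them with identical positions. The share was 64.9% at column 0 (-1.93 points, -3.80 to -0.08), 63.9% at column 2 or more (-1.01 points, -4.24 to 2.28) and 64.3% in the SOX2 list alone (-1.39 points, -3.04 to 0.24). Over the 4 bins of total signal it ran from 61.6% to 64.9% in column 1 sites, with no order by signal.

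Column 1 sites lay mostly in introns, and nearer to coding starts than windows along the genome. The centre was in an intron in 2380 sites (65.8%, 64.3 to 67.3), outside annotated genes in 1063 (29.4%) and in an exon in 173 (4.78%), of which 17 were coding, 92 untranslated and 64 noncoding. In genome windows, which were held to the same distance rule, 56.5% were in introns, 39.2% outside genes and 4.33% in exons. None of the shares in column 1 sites differed from column 0 or from column 2 or more beyond the interval of the difference. Compared with the SOX2 list alone, the share in introns differed by -3.45 points (-5.07 to -1.86) and the share outside genes by 4.05 points (2.53 to 5.61). The nearest protein-coding transcript start was a median of 28.4 kb away (26.7 to 30.5), with quartiles of 9.87 and 86.0 kb, against 44.8 kb for genome windows (44.4 to 45.3). It was over 100 kb away in 829 sites (22.9%), 2.53 points more than in the SOX2 list alone (1.14 to 3.98), and in 34.9% of genome windows. A start lay within 10 kb of 25.4% of the sites and of 21.5% of genome windows.

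At the limit set by the rule, a column 1 site 1010 bp from a start of PDE5A had a total signal of 4211. Just outside were intervals 998 bp from starts of ATF7IP and PLCXD2, with total signals of 1314 and 1221. Within 1 kb of a start of any transcript, noncoding ones included, lay 120 of the 3616 sites (3.32%).

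Over the autosomes the density was 1.25 sites per Mb. It was highest on chromosome 6, with 322 sites or 1.88 per Mb, and lowest among autosomes on chromosome 19, with 13 sites or 0.220 per Mb. The other classes went the same way, with 4.73 column 0 intervals and 18.2 intervals of the SOX2 list alone per Mb on chromosome 6, and 0.575 and 3.72 on chromosome 19. Column 1 sites made up 26.1% of the distal shared intervals on chromosome 6 (23.7 to 28.6) and 27.7% on chromosome 19 (16.9 to 41.8). Chromosome X held 22 sites, 0.142 per Mb, or 11.4% of the autosomal density. The column 0 intervals on X stood at 9.24% and those of the SOX2 list alone at 16.04% of their autosomal densities. Neighbouring column 1 sites were a median of 277 kb apart, but 2119 (58.6%) lay within 10 kb of another interval of the SOX2 list.

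**Figure D5:**
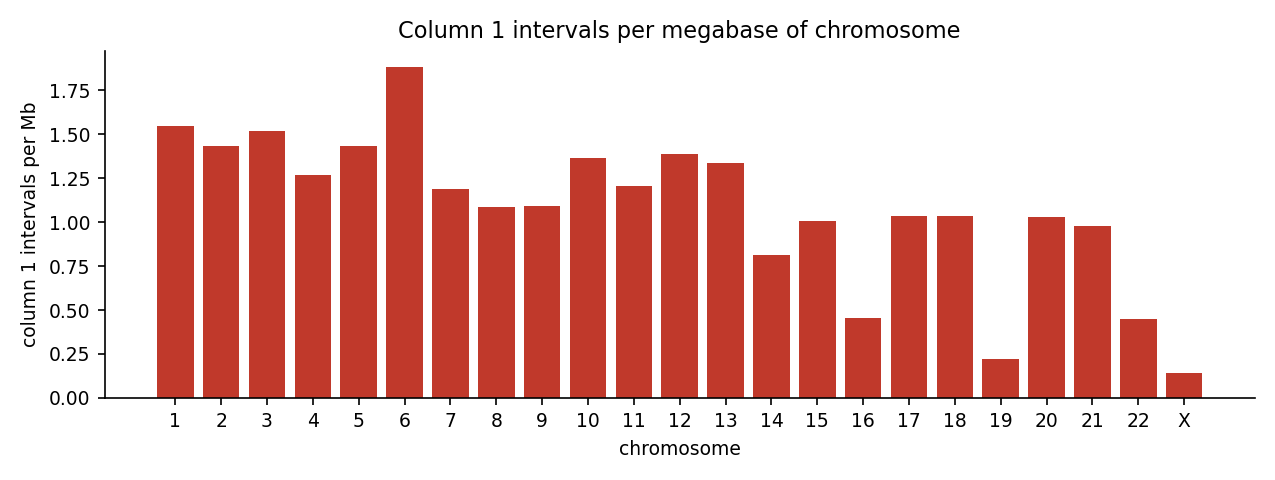
Column 1 sites per Mb of chromosome length, for the autosomes and chromosome X (chromosome Y is not drawn). Of these, chromosome 6 was highest at 1.88 per Mb, and chromosomes 19 and X were lowest at 0.220 and 0.142 per Mb.

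The densest 1 Mb held 12 column 1 sites, with centres between 109967604 and 110946826 on chromosome 3. All 12 had NECTIN3, a gene of cell-cell adhesion, as the nearest protein-coding start. Their total signal ran from 1270 through a median of 2492.5 to 4432, against a median of 2910.5 over all column 1 sites. The stretch held 28 shared intervals in all and 36 of the SOX2 list alone. Of the 12 sites, 1 held an AP-1 word and 7 overlapped the down-sampled list. Over all column 1 sites an AP-1 word stood in 16.6% of central 200-bp windows and 28.9% of whole intervals. The share that overlapped the down-sampled list was 62.9%.

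Protein-coding gene bodies contained 2054 sites (56.8%, 55.2 to 58.4), spread over 1514 genes. The share was 55.6% at column 0 (54.5 to 56.6), 56.8% at column 2 or more, 61.5% in the SOX2 list alone and 43.9% in genome windows. These genes had a median length of 151 kb, against 27.2 kb over 20176 protein-coding genes. The 25 genes with 5 or more sites had a median of 466 kb. Longer genes have more room for a site, so these lengths partly describe how the genes were chosen. Whether genes holding intervals of the other classes or genome windows were as long was not tested. GPC6, a cell-surface glypican gene of 1181 kb, and RBMS3, an RNA-binding protein gene of 1436 kb, held 8 each. GPC6 also held 25 column 0 intervals and 31 of the SOX2 list alone, and RBMS3 held 20 and 52. ADAMTSL1, for a secreted matrix protein, and DGKI, a diacylglycerol kinase gene, held 7 each. A further 8 genes were tied at 6, namely BACH1, EPS8, EXOC6B, FMN2, LPP, MAML2, PRIM2 and RUNX1. Beside their 6, these genes held 3 to 17 column 0 intervals, PRIM2 the most, and 7 to 50 of the SOX2 list alone, EXOC6B the most. Per length EPS8, a regulator of actin, was the densest of these 12, at 2.29 sites per 100 kb. RUNX1, a Runt-domain transcription factor, had 0.49 per 100 kb.

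The site of highest total signal stood far from all others. It covered chr11:5246140-5247348, in an untranslated exon of HBB, the beta-globin gene, with a total signal of 250582 and a maximum of 371. Whether this signal comes from the genomic locus was not tested. The next had a total signal of 14246 and a maximum of 25. It lay in an intron of the noncoding gene GUSBP1 at chr5:21534932-21535728, 355 kb from the nearest coding start, that of the cadherin gene CDH12. A site of 13536 at chr7:94306217-94307220 lay 12.7 kb from PEG10, an imprinted gene derived from a retrotransposon, and held no match. The site near NBPF1 shown above had 13052 and lay in an exon of the noncoding gene CROCCP2.

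Adjacent intervals held 4 of the next ranks. At AHI1, a gene of the primary cilium, chr6:135678730-135679038 and chr6:135679210-135680482 carried the same signal values, with a total of 12814. At WBP4, a splicing factor gene, chr13:41638345-41639093 and chr13:41639349-41640224 likewise both had 12707. The list of 10 ended with chr11:23607324-23607944, 726 kb from CCDC179, at 12585, and with chr3:30014003-30015163 in an intron of RBMS3 at 12311. Of these 10 sites, 8 held no AP-1 word anywhere in the interval and 7 were in the down-sampled list. Over all column 1 sites, 28.9% of whole intervals held an AP-1 word and 62.9% of sites were in the down-sampled list.

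Genes of 8 lists were counted by nearest protein-coding start. The lists describe where the sites lie and say nothing of expression, which was not measured. Extracellular matrix genes were nearest to 35 sites (0.968%, 0.697 to 1.34), at 14 of 31 genes. The share was 0.9501% over all distal shared intervals, 0.643% over the distal SOX2 list and 0.291% over genome windows. THBS1, for a matricellular glycoprotein, had 6 sites, COL12A1 had 5 and COL1A2, a chain of type I collagen, had 4 among 9 distal shared intervals. COL1A1, the other chain, had 0, but no distal interval of the SOX2 list had it as the nearest start. The strongest of the 35 sites was at chr15:39637308-39638294, with a total signal of 6699, 235 kb from THBS1. The list of TEAD, YAP, RUNX and NFI genes was nearest to 19 sites (0.525%), at 7 of 20 genes, against 0.435% of all distal shared intervals and 0.205% of genome windows. CCN2, a classical YAP target, and RUNX1 had 5 each. At NFIA, a nuclear factor I gene with 3 sites, the strongest was chr1:61984752-61985133 at 5823.

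Fibroblast and mesenchymal transcription factor genes were nearest to 21 sites (0.581%) at 10 of 22 genes, against 0.619% of all distal shared intervals and 0.383% of genome windows. TWIST1, a mesenchymal bHLH factor, had 3. The strongest, at 5641, was chr7:19100407-19101263, in an intron of the gene body as annotated in this release and 55.7 kb from the nearest TWIST1 start. PRRX1, another mesenchymal factor, had 0 column 1 sites among 6 distal shared intervals. AP-1 genes had 2 sites (0.0553%) at 2 of 15 genes, FOSL2 and JUN, with 0.0589% over all distal shared intervals and 0.0436% over genome windows. The FOSL2 site, at chr2:28523316-28523947 with a total signal of 6901, lay in an intron of BABAM2, 91.7 kb from the FOSL2 start.

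Some lists cover genes on which SOX2 acts in other cell types. Sites were assigned to the nearest start at any distance, and many lay far from it. Median distances were 129.3 kb for pluripotency and reprogramming genes, 322.7 kb for SOX family genes and 70.2 kb for neural progenitor genes. For axon guidance and synaptic adhesion genes the median was 194.1 kb. Pluripotency and reprogramming genes had 7 sites (0.194%, 0.0938 to 0.399) at 6 of 27 genes, with 0.317% over all distal shared intervals and 0.306% over genome windows. The strongest, chr1:200045330-200045896 at 4353, lay in an intron of NR5A2, a nuclear receptor gene. SOX family genes had 6 sites (0.166%, 0.0761 to 0.362) at 3 of 19 genes, with 0.147% over all distal shared intervals and 0.329% over genome windows. These were SOX4, SOX9 and SOX11, whose nearest sites lay 27.4, 572.5 and 61.4 kb from the start. SOX4 had the strongest, chr6:21520719-21521442 at 5071. Neural progenitor genes had 16 sites (0.442%, 0.273 to 0.718) at 4 of 30 genes, with 0.361% over all distal shared intervals and 0.403% over genome windows. CDH2, the N-cadherin gene, had 7 of them, and MEIS1, a homeobox gene, had 5. The strongest, chr18:26761669-26762428 at 9079, lay 1004 kb from CDH2, held no match and no SOX core word. Axon guidance and synaptic adhesion genes, many of them very long, had 54 sites (1.49%, 1.15 to 1.94) at 19 of 32 genes, with 1.41% over all distal shared intervals and 1.99% over genome windows. PCDH9, a protocadherin gene, had 14, SLIT2, a guidance ligand, had 6 and NEGR1 had 5. Their strongest site was the interval near CDH12 described above. For none of the 8 lists did the 95% interval of the column 1 share exclude the share over all distal shared intervals.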

How the data were processed

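CUT&RUN for the V5 tag was analysed from 3 deposited peak lists in build hg19. Per the submitters' processing notes the tools were Bowtie2 2.3.4.1, SAMtools, bedtools 2.27.1, SEACR 1.3 and deepTools 3.5.0; their settings and whether replicates were pooled are not given in the sources used here. Per the file headers nothing is stated, so columns 4 and 5 were read as the total and maximum signal that SEACR writes, in the authors' units and with normalization unknown. Sequencing depth is not known from these lists.

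Exact duplicate rows were merged. Sequence was read from GRCh37 (hg19). Words were searched on both strands, overlaps allowed, in 200-bp windows: SOX core ACAAAG or ACAATG, AP-1 TGAGTCA or TGACTCA, CRE TGACGTCA, TEAD GGAATG, RUNX TGTGGTT, NFI TTGGC alone or paired with an inverted copy, FOX TGTTTAC or TGTTTGC, octamer ATGCAAAT, CEBP TTGCNNAA, ETS CCGGAAGT or GAGGAAGT, the GATA word AGATAA, E-box CAGCTG, the CCAAT box, the SP word GGGCGG and the homeodomain word TAATTA. Share of the words over windows every 10 kb of the genome served as background. Shares carry 95% Wilson intervals and differences Newcombe intervals; with 1 list per group no p-value was computed. The matrix was fitted by logistic regression (scikit-learn 1.9.0) and the steps were tested on simulated data.

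The sites, gene lists and words were chosen with earlier results of these data known. Named were the 10 sites of highest total signal, the strongest site of each gene list, the 5 genes with most sites (with ties), the densest 1 Mb and the sites next to the 1 kb limit, 1 of which is not reported here. The alternatives were duplicate rows, distance limits, all transcript starts, the stronger 50% of sites, shared signal values, a minimum width, window size and place, and the overlap with the down-sampled list.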

Additional observations from a re-analysis of the deposited data

How the results depend on the processing

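No paired analysis was possible because only 1 list per group was analysed, so replicate numbers pair nothing and no replicate could be left out. Of 63 alternatives, 1 of them added after the data had been seen, 46 were counted as unchanged. That meant a value within the interval of the main result, or a count within 1.5 times. For the AP-1 difference from column 0 it meant the same sign and no interval that newly excluded 0. Restricting to the stronger 50% gave 1808 sites, a median width of 530 bp, a median total signal of 4221, a SOX core share of 55.9% and an AP-1 share of 13.5%. An overlap of at least 50% of both intervals lowered recovery in the down-sampled list to 58.8%, and a distance over 5 kb lowered the intron share to 63.7%. The SOX core share was 34.6% in 100-bp windows and 85.0% in whole intervals. The AP-1 share was 8.38% in 100-bp windows, 18.7% at the region of maximum signal and 28.9% in whole intervals. The AP-1 difference from column 0 was -1.18 points in 100-bp windows (-2.25 to -0.06), and it changed sign to 0.50 at the region of maximum signal (-0.99 to 2.02) and to 3.02 in whole intervals. A SOX core word lay within 25 bp of the middle of the region of maximum signal in 18.8% of sites and within 100 bp in 59.0%, against 33.4% within 50 bp.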
